A study of Mus musculus with 12 samples.

Results

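Cers1 and Gdf1 are the 2 genes of 1 bicistronic locus on mouse chromosome 8, and they were taken from the tables by their gene symbols, 2 of 27942 genes analysed. The pair was chosen by measured values as well, since the FPKM of both genes in these same 6 libraries was known when the locus was picked. The libraries came from C2C12, immortalised mouse myoblasts that form multinucleated myotubes in low serum. After growth in fetal bovine serum the cells were held for 7 days in differentiation medium with horse serum, either with 4-octyl itaconate (OI) at 25 µmol/L or without it (control), with 3 libraries in each group. OI is an ester of itaconate, a metabolite of activated macrophages, that enters cells and is known as an activator of NRF2, and the title of the series states that it represses myogenic differentiation. All cells are of 1 cell line and carry no transgene or deletion named in the labels. The labels do not say whether the 3 libraries of a group came from separate cultures, so errors measure the spread between libraries, which may be technical. Another 6 samples in the series are not analysed here.

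CERS1 is a ceramide synthase of the endoplasmic reticulum. It joins a fatty acyl chain, preferably from stearoyl-CoA, to a sphingoid base, and it is known as the main ceramide synthase of skeletal muscle and of neurons. GDF1 is a secreted ligand of the TGF-beta superfamily that pairs with Nodal and acts through activin receptors and SMAD proteins when the left-right axis of the embryo is set. In mammals both proteins can be read from 1 long mRNA, with the CERS1 reading frame upstream and the GDF1 reading frame downstream.

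The annotation shows how far the 2 genes are 1 unit. Cers1 (ENSMUSG00000087408) spans chr8:70315775-70331592 on the plus strand of GRCm38, the assembly also called mm10, and Gdf1 (ENSMUSG00000109523) spans chr8:70329817-70331587 on the same strand. Both spans are the same in the deposited tables and in GENCODE release M21. All 1349 exonic bases of Gdf1 lie inside exons of Cers1, and they make up 49.5% of the 2728 bases of the longest Cers1 transcript. The other 1379 bases of that transcript lie in no Gdf1 exon of this annotation. GENCODE lists 3 Cers1 transcripts. The longest has 8 exons and is annotated with the GDF1 reading frame of 357 codons, the same one that the single Gdf1 transcript carries. The next, of 2711 bases and the same exons but for their outer ends, is annotated with the CERS1 reading frame of 350 codons, which ends within exon 7 and has no base in a Gdf1 exon. The shortest is a retained-intron RNA of 787 bases with no reading frame. Exons of Upf1, a gene of nonsense-mediated decay on the opposite strand, share 68 bases with Cers1, and 63 of its bases lie over Gdf1. No source used here says whether counting was strand-specific.

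**Figure D1:**
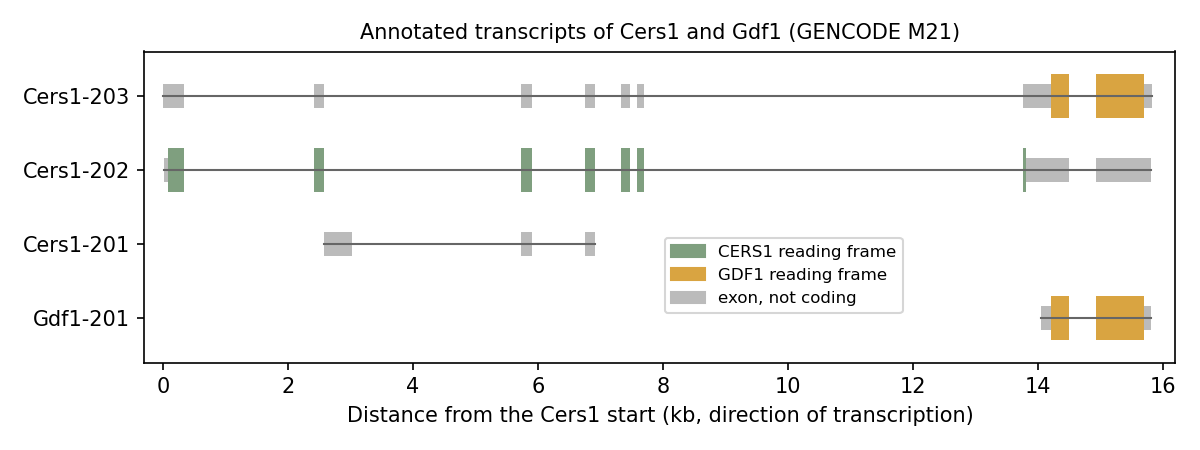
Exons of the 3 annotated Cers1 transcripts (upper rows) and of the Gdf1 transcript (bottom row), drawn to scale by distance from the Cers1 start in kb. Green marks the CERS1 reading frame, orange the GDF1 reading frame and grey the exon parts that are not coding: both Gdf1 exons lie inside exons of the upper pair of Cers1 transcripts.

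The ends of the reading frames are shown because they mark how each frame lies to the Gdf1 exons. The CERS1 frame lies outside the Gdf1 exons and the GDF1 frame wholly inside them. Both protein-coding Cers1 transcripts hold the bases of both frames, so reads on a frame do not tell which product is made. The GDF1 start codon follows the CERS1 stop codon after 401 bases of the same transcript. Each line gives 60 bases of the 2711-base Cers1 transcript as spliced, 5′ to 3′, from the GENCODE M21 transcript sequences, with the start or stop codon in capitals. They lie at chr8:70315860-70315919, chr8:70323454-70329580 (across 1 exon junction), chr8:70329982-70330041 and chr8:70331418-70331477 of GRCm38.
Start of the CERS1 reading frame: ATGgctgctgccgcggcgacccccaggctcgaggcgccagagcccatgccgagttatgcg
End of the CERS1 reading frame: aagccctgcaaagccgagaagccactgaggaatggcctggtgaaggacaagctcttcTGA
Start of the GDF1 reading frame: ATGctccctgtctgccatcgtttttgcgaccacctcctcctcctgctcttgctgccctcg
End of the GDF1 reading frame: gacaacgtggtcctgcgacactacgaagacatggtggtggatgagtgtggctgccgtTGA

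The annotation that the authors deposited with the values also merges the products. In the authors' deposited table the Cers1 row and the Gdf1 row carry the same 15 GO terms, the same KEGG gene and the same best protein match, which is GDF1, and none of these fields of the Cers1 row names a ceramide or a lipid. The Pfam field of the Cers1 row in the authors' deposited table holds both proteins, a TLC domain, the catalytic domain of ceramide synthases, at residues 128 to 331, and a TGF-beta like domain at residues 250 to 356. The Gdf1 row in the authors' deposited table has the TGF-beta like domain alone, at the same residues.

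Values were deposited as FPKM, fragments per kilobase of gene, scaled to the library size. Rounded library sizes recovered from these values were 25684000 to 36274000 reads or fragments in OI and 24441000 to 30522000 in control. Control replicate 1 stood apart: the genes analysed took 23.9% of its reads, against 5.25% to 5.77% in the other 5 libraries, and its part in the results was not tested beyond leaving it out. Of the muscle markers listed for a check of the cells, Tnnc1 and H19 could be read, and both were expressed in every library and past the threshold, at lower levels in OI. Tnnc1, a troponin subunit, was at 24.7, 23.0 and 21.9 FPKM in OI and at 140, 110 and 128 FPKM in control, and the long non-coding RNA H19 at 24.1, 32.1 and 25.9 FPKM in OI and at 136, 131 and 131 FPKM in control. Neither overlapped between the groups (limma adjusted p = 0.000188 for Tnnc1 and 0.000230 for H19), and the part of this marker difference in the values of Cers1 and Gdf1 was not tested. None of the listed markers of fibroblasts, adipocytes, neurons, endothelial cells or leukocytes was analysed here. In bulk RNA, fewer cells that express a gene and less RNA per cell cannot be told apart.

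Gdf1 was low in every OI library and higher in every control library. It was at 0.138, 0.102 and 0.433 FPKM in OI replicates 1 to 3 and at 2.82, 2.36 and 1.51 FPKM in control replicates 1 to 3. The groups did not overlap: the highest OI library, replicate 3, lay below the lowest control library, also replicate 3. Gdf1 averaged 0.225 ± 0.181 FPKM in OI and 2.23 ± 0.666 FPKM in control (SD, n = 3 each), a ratio of OI to control of 0.101. As read numbers, FPKM times gene length times library size, these values were whole to within 0.001, with 6, 5 and 15 reads in OI and 93, 97 and 61 reads in control. The depth behind the OI values is therefore small.

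Cers1 did not share that pattern. Its values were 1.67, 1.92 and 1.08 FPKM in OI replicates 1 to 3 and 0.994, 0.971 and 1.32 FPKM in control replicates 1 to 3. The groups overlapped, because OI replicate 3 lay below control replicate 3 while OI replicates 1 and 2 lay above all control libraries. Cers1 averaged 1.56 ± 0.431 FPKM in OI and 1.10 ± 0.198 FPKM in control (SD, n = 3 each), a ratio of 1.42. Its read numbers, computed with the deposited length of 2728 bases, were 146, 190 and 75.7 in OI and 66.2, 80.9 and 108 in control, and they were not whole.

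**Figure D2:**
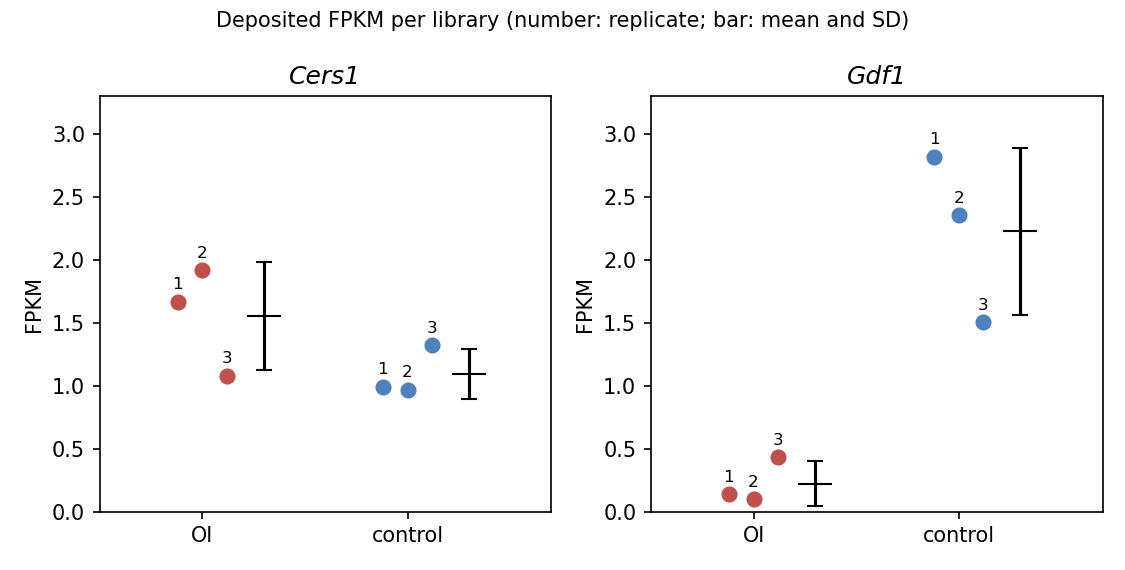
FPKM of Cers1 (left) and Gdf1 (right) in each library, OI left of control, with the replicate number above each point and the mean and SD beside each group (n = 3). Gdf1 lies between 0.102 and 0.433 FPKM in OI and between 1.51 and 2.82 FPKM in control, while the groups overlap for Cers1.

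In the fit across the 1737 genes that reached 1 FPKM in 3 libraries or more (limma on log2(FPKM + 1), Benjamini-Hochberg adjustment over all genes tested, threshold 0.05), 48 genes passed, which is 2.76% of those tested, with 28 of them, 1.61% of the genes tested, lower in OI and 20, or 1.15%, higher. Both members passed the filter, Cers1 with 3 OI libraries and 1 control library at 1 FPKM or more, and Gdf1 with its 3 control libraries alone, so that its direction followed from how it entered the test. Gdf1 had a log2 fold change of -1.39 ± 0.19 (SE; limma adjusted p = 0.0233), the 15th lowest of the 1737, and Cers1 of 0.28 ± 0.16 (SE; limma adjusted p = 0.416). Adding 1 before the logarithm shrinks changes at levels as low as these. Since the locus was picked with these values known, they are a description, and the adjusted p of Gdf1 supports nothing. Its call was present without control replicate 3 (limma adjusted p = 0.0216) and ended without any other library, control replicate 1 (0.0705), control replicate 2 (0.10), OI replicate 1 (0.0676), OI replicate 2 (0.0967) or OI replicate 3 (0.0516). These fits kept the 1737 genes that passed the filter with all 6 libraries. Had the filter been applied anew, Gdf1 would not have been tested without any 1 of its 3 control libraries. The call of Gdf1 also ended with no filter, over 10948 genes (limma adjusted p = 0.0757). Non-overlapping groups with lower values in OI, as for Gdf1, were found for 12.5% of the genes tested, the opposite order for 11.1%, and either for 23.6%. Ranks and shares cover only genes drawn from the 27942 analysed, of which 2468 are protein-coding, and not the whole transcriptome.

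**Figure D3:**
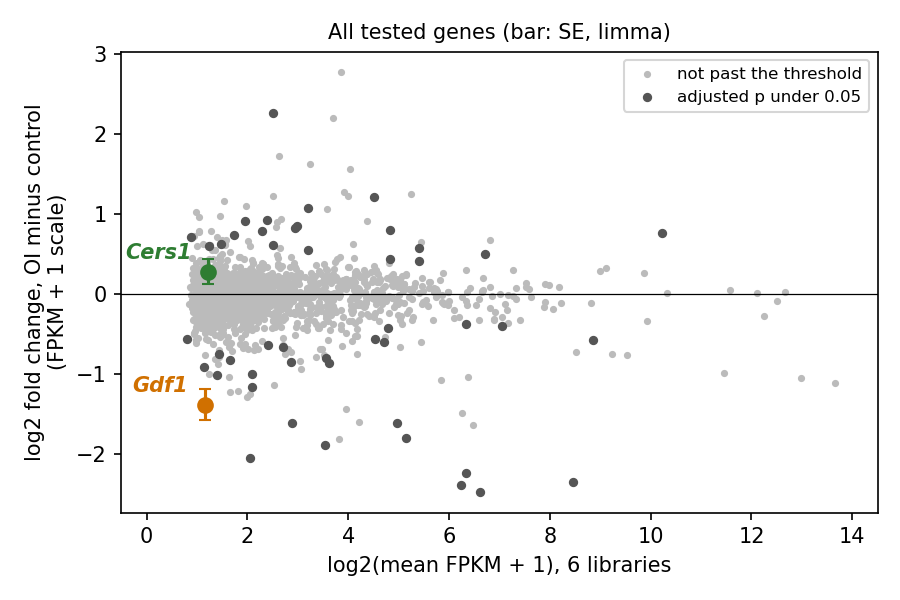
Log2 fold change of OI minus control on the log2(FPKM + 1) scale for the 1737 genes tested, against the log2 of their mean FPKM + 1 over 6 libraries, with the SE of Cers1 and Gdf1 as bars. Gdf1, at -1.39, is among the lowest of the weakly expressed genes, and Cers1, at 0.28, lies among genes that did not pass the threshold.

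Both members are weakly expressed here. Among the 310 protein-coding genes tested, whose median level was 4.41 FPKM in OI and 4.25 FPKM in control, 19% had a lower mean than Cers1 in OI and 5.81% in control. In control 27.4% had a lower mean than Gdf1. In OI none of the 310 did, a place that follows largely from the filter, which Gdf1 passed through its control libraries alone. As deposited, per length of gene, the FPKM of Gdf1 was lower than that of Cers1 in all 3 OI libraries and higher in all 3 control libraries, an order that rests on how reads over the shared bases were assigned. The FPKM of Gdf1 divided by that of Cers1 was 0.0830, 0.0532 and 0.401 in OI replicates 1 to 3, against 2.84, 2.43 and 1.14 in control replicates 1 to 3.

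Because each exonic base of Gdf1 is also a base of Cers1, a read that lies on these bases could be given to either row, whereas reads on the other 1379 bases of the longest transcript could come from Cers1 alone. How the shared reads were assigned is not stated, so the values of both genes are uncertain one by one. The read numbers of the rows were added to give the locus as a whole, in RPM, reads scaled to the library size as FPKM are but not divided by length. The locus had 4.74, 5.38 and 3.53 RPM in OI replicates 1 to 3 and 6.52, 5.83 and 5.65 RPM in control replicates 1 to 3. It averaged 4.55 ± 0.938 RPM in OI and 6.0 ± 0.458 in control (SD, n = 3 each), a ratio of OI to control of 0.759, and the groups did not overlap. On the log2 scale the means differed by -0.42 (OI minus control), by -0.25 without OI replicate 3 and by -0.36 without control replicate 1. As the total is the sum of both rows, its ratio lies by construction between those of the Gdf1 row (0.101) and the Cers1 row (1.42). It also depends on the length taken for Cers1.

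The share of the locus reads in the Gdf1 row was lower in every OI library than in any control library, and whether this reflects the RNA or the assignment of shared reads was not tested. The Gdf1 row held 3.94%, 2.56% and 16.5% of the locus reads in OI replicates 1 to 3 and 58.4%, 54.5% and 36.0% in control replicates 1 to 3. Its share averaged 7.68% ± 7.70 in OI and 49.6% ± 12 in control (SD, n = 3 each), a difference of -42.0 percentage points, or of -37.6 without control replicate 1. OI replicate 3 had the largest Gdf1 share and the lowest Cers1 value of its group, and control replicate 3 the smallest Gdf1 share and the highest Cers1 value of its group, while the largest share among controls, in replicate 1, did not go with the lowest Cers1 value. Cers1 reads are part of the total behind the share, so the measures are linked by construction. Over all 6 libraries log2(FPKM + 1) of Cers1 and Gdf1 had a Pearson r of -0.80, a description only, since the rows share bases, reads and libraries.

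**Figure D4:**
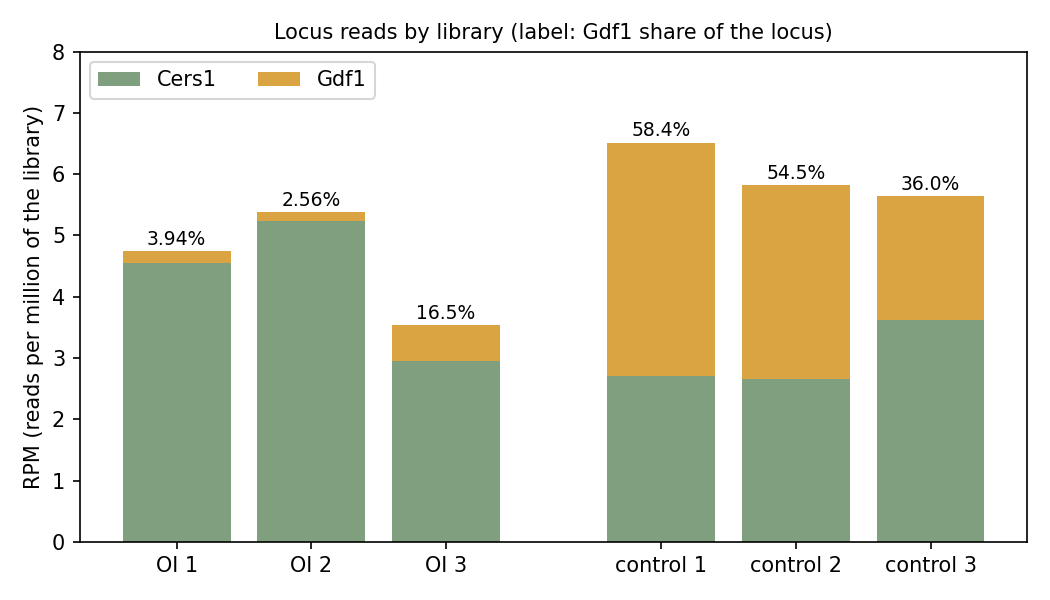
Reads of each library, scaled to its size, assigned to Cers1 (green) and Gdf1 (orange), stacked, with OI libraries left of control libraries and the Gdf1 share of the locus above each bar. The whole bars reach 3.53 to 5.38 RPM in OI and 5.65 to 6.52 in control, while the orange part makes up 2.56% to 16.5% in OI and 36.0% to 58.4% in control.

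The locus total depends on the length taken for Cers1. With the 787 bases of the shortest transcript, as if all Cers1 reads came from the retained-intron transcript, the locus would hold 1.43 to 1.65 RPM in OI and 3.08 to 4.59 in control, and the Gdf1 share would be 8.35% to 40.7% in OI and 66.1% to 83.0% in control. With the 2711 bases of the transcript that carries the CERS1 frame the totals were 3.51 to 5.35 in OI and 5.63 to 6.50 in control. The groups did not overlap under any of the 3 lengths, in the total or in the share. These comparisons all contain the same Gdf1 reads, whose groups did not overlap, so they are not separate results. Among the genes tested, 23.6% had groups that did not overlap, in either direction.

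The same kind of nesting was looked up elsewhere in the tables after these values were seen. Among the genes tested there were 8 same-strand pairs in which all exonic bases of one gene lay inside exons of the other. In 5 of them, Cers1 and Gdf1 included, the fold changes of the pair had opposite signs. How often genes that are not nested differ in sign was not counted, and some pairs share an outer gene. The count is therefore a description and says nothing about nesting. The other pair of protein-coding genes was Zbed6 inside Gm38394, with log2 fold changes of 0.15 for Zbed6 and -0.54 for Gm38394.

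Both members share a start in RefSeq, and Gdf1 has a further listed start 13990 bases downstream, at position 70329765, inside exon 7 of Cers1. The 250 bases before the shared start, chr8:70315525-70315774 of GRCm38 (RefSeq, GRCm38.p6), are shown because this start lies before both reading frames. The window before the further Gdf1 start is not shown, and its motifs are not given. Matches to the motifs searched are in capitals.
Upstream of the shared start: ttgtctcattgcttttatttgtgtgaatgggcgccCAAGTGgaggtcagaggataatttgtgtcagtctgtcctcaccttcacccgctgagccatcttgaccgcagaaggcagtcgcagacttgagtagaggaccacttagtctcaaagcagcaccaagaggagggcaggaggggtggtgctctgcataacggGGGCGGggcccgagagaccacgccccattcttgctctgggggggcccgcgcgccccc
The motifs searched on both strands were CANNTG, the E-box bound by myogenic factors such as MyoD, its form CAGCTG, the NRF2 element TGACNNNGC, and the GC box GGGCGG. The E-box was found once, at -215 to -210 from the start, and the GC box once, at -57 to -52, and they do not overlap. Over all 32851 RefSeq windows of the same length, 66.2% held an E-box and 32.7% a GC box. Neither the CAGCTG form, held by 13.0% of all windows, nor the NRF2 element, held by 10.2%, was in this window. A match is a description of letters, not a bound site.

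Lists were drawn up for the surrounding biology, namely ceramide synthesis, ceramide use and breakdown, acyl chain elongation, TGF-beta family ligands, and their receptors and effectors. Apart from Cers1 and Gdf1 themselves, 0 members of these 5 lists were among the genes analysed. Ceramide synthases other than Cers1, serine palmitoyltransferase, the Nodal receptors and the 8 other genes annotated within 100 kb were not analysed here.

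Genes that share exonic bases with listed genes were looked up as well, a search added after the data were seen. There were 16 such genes over 14 listed genes, of which 4 were tested and 0 passed. Over all 1737 genes tested 2.76% passed, so 0 of 4 says nothing about these genes. The 4 lie opposite to the genes they overlap. As the strand setting is not known, their reads could also come from the listed genes, which was not tested. Gm48133, over Col4a3bp, the ceramide transfer protein, averaged 5.40 ± 1.39 FPKM in OI and 4.95 ± 1.52 FPKM in control, and Gm47439, over Galc, the lysosomal galactosylceramidase, 2.12 ± 0.143 FPKM in OI and 1.75 ± 0.365 FPKM in control (SD, n = 3 each). Gm48008, over the ligand gene Tgfb3, averaged 6.70 ± 1.10 FPKM in OI and 9.54 ± 1.60 FPKM in control, and Gm29491, over Tgfb2, 2.99 ± 0.0969 FPKM in OI and 4.01 ± 1.47 FPKM in control (SD, n = 3 each). Their limma adjusted p-values were 0.857, 0.478, 0.230 and 0.552 in that order. The other 12 did not pass the filter and were not tested.

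The tested genes most like each member were found by Pearson's r of log2(FPKM + 1) over the 6 libraries, a measure that a difference between the groups can set by itself. For Gdf1 they were Cdkn2d, an inhibitor of cyclin-dependent kinases (r = 0.99), the antisense genes Gm15655 (0.99) and Gm15851 (0.97), the long non-coding RNA Ftx (0.97) and 4933407K13Rik (0.97). Cdkn2d averaged 5.87 FPKM in OI and 7.11 FPKM in control, so its log2 fold change, -0.24, was smaller in size than the -1.39 of Gdf1, and it did not pass the threshold (limma adjusted p = 0.163), nor did Ftx (0.171). The other 3, Gm15655, Gm15851 and 4933407K13Rik, passed it, at log2 fold changes of -0.86, -1.89 and -0.56 in that order (limma adjusted p = 0.0267, 0.00229 and 0.0414). Over all genes tested 2.76% passed, but these were picked by likeness to Gdf1, whose groups did not overlap, so their calls support nothing. 4933407K13Rik was weakly expressed, at means of 0.403 FPKM in OI and 1.08 FPKM in control. For Cers1 the genes most like it were Tomm20, a receptor subunit of mitochondrial protein import (0.97), the coding gene AC166344.3 (0.96), the GMP reductase gene Gmpr (0.96), the long intergenic RNA Gm26718 (0.95) and the pseudogene Gm43106 (0.94). Log2 fold changes of these 5 ran from 0.11 for Tomm20 to 0.18 for Gm43106, and none of the 5 passed the threshold, with limma adjusted p-values between 0.390 and 0.576.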

How the data were processed

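RNA-seq tables of 6 libraries were used, 3 of OI and 3 of control C2C12 cells on day 7. Per the labels' protocols, RNAiso Plus served for RNA extraction and a TruSeq kit for library preparation. The submitters' processing notes name build mm10 and cutadapt 2.7, HISAT2 2.1.0 and StringTie 1.3.3b. The authors deposited FPKM values per gene, 1 table per sample, with gene length. No source used here gives the strand setting or how reads of overlapping genes were divided. The 6 tables hold the same 27943 genes. The annotation of 1 was broken and it was left out.

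In genes with 1 annotated transcript of the deposited length, 99.98% of FPKM values above 0, times length, were whole multiples of 1 step per library (within 0.001 read), which gave the library sizes. Read numbers of genes with several transcripts, such as Cers1, are approximate. No interval is given, since groups were compared across libraries.

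Genes at 1 FPKM or more in at least 3 libraries were tested on log2(FPKM + 1) by limma 3.58.1 (R 4.3.3, trend=TRUE, two-sided) with Benjamini-Hochberg adjustment. The fit was tested on simulated data. Tables and figures used Python 3.11.15, pandas 2.3.3 and Matplotlib 3.10.9. Members and lists were chosen with earlier results of these data known. For that reason the exact permutation test planned for the Gdf1 to Cers1 ratio is not given. Named genes were the members, genes within 100 kb, up to 3 analysed genes per list, and the 5 tested genes most like each member. 1 listed gene is not reported here. Zbed6, Gm38394 and the genes overlapping listed genes were named after their values were seen, and Tnnc1 and H19 as listed markers. The alternatives tried were omitting the filter or raising it to 5 FPKM, pseudocounts of 0.1 and 5, median-of-ratios and quantile scaling, trend=FALSE, robust=TRUE, a replicate block, voom on read numbers and leaving out each library. Fits that left out a library kept the genes that passed the filter with all 6 libraries. Other Cers1 lengths and the scaling of the locus total were added after the data were seen.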

Additional observations from a re-analysis of the deposited data

How the results depend on the processing

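Gdf1 was lower in OI in all 15 alternative fits, with log2 fold changes from -3.62 (voom on read numbers) to -0.46 (pseudocount 5). These fits reuse the same libraries, whose groups do not overlap for Gdf1, so the common sign adds no support. Gdf1 passed the threshold in 8 of them. It did not pass with no filter (-1.39, limma adjusted p = 0.0757), with the replicate block (-1.39, limma adjusted p = 0.138), or in 5 of the 6 fits that left out 1 library, whose values ran from -1.56 to -1.25. The value was -2.94 with a pseudocount of 0.1. A filter at 5 FPKM leaves out both members. Cers1 was higher in OI in all 15 fits (0.10 to 0.51) and passed in 0 of them (limma adjusted p from 0.277 to 0.734), with values from 0.17 to 0.42 when 1 library was left out. The count of 48 genes fell to 14 with no filter, to 17 with the replicate block, and to between 15 and 27 without 1 library. Fits with another filter tested other numbers of genes, so their counts are not on 1 scale. With voom on read numbers 62 of 3001 genes passed, and with the filter at 5 FPKM 49 of 591, against 48 of 1737.

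The labels do not say whether same-numbered libraries form pairs. Their deviations from the group means correlated at 0.05, 0.14 and -0.08 for replicates 1 to 3. Not every library correlated best with its own number. With 3 libraries in each group these values cannot decide whether the libraries are paired.

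The mean log2 ratio of Gdf1 to Cers1 FPKM differed by -4.04 (OI minus control), by -4.90 to -3.45 without 1 library, and by -1.66 for FPKM with a pseudocount of 1, which compresses low values by construction. The locus total, on the log2 scale, differed by -0.42, by -0.39 with median-of-ratios scaling, by -1.32 with the length of the shortest Cers1 transcript, and by -0.55 to -0.25 without 1 library. It was nearest to 0 without OI replicate 3. The Gdf1 share differed by -42.0 percentage points, by -56.1 with the length of the shortest Cers1 transcript, and by -48.8 to -37.6 without 1 library. With 5 to 15 reads for Gdf1 in OI and the division of shared bases unknown, depth and assignment limit what can be said of either gene alone.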
